A study of Mus musculus with 6 samples.

Results

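The 7 miRNA products described here come from the miR-183 cluster (mmu-miR-183-5p, mmu-miR-96-5p and mmu-miR-182-5p), the miR-31 hairpin (mmu-miR-31-5p and mmu-miR-31-3p) and the miR-200 group (mmu-miR-141-3p and mmu-miR-429-3p). The prefix mmu, for mouse, is left out from here on. They were chosen by name as miRNAs known from epithelia. All 7 were among the 474 miRNAs listed in every library, and each had at least 1 read in some library. They were measured by small RNA sequencing of extracellular vesicles (EVs), small membrane sacs shed by cells, from primary mouse hepatocytes. All mice were ApoE KO, so neither group had intact ApoE, the lipoprotein ligand whose loss raises plasma cholesterol and promotes atherosclerosis. One group had been fed a chow diet (Chow-EV, 3 libraries) and the other an HFHC diet (HFHC-EV, 3 libraries). The sources used here do not give the age of the mice, the length of the feeding, the make-up of the HFHC diet or the number of mice behind a library.

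A mature miRNA is cut from a hairpin precursor, and it recognises mRNAs mainly through its seed, bases 2 to 8 from the 5′ end. The miR-183 cluster is known for its work in sensory cells such as photoreceptors and hair cells, and its 3 hairpins are processed from a shared primary transcript. miR-31 is known from keratinocytes, gut epithelium and many carcinomas. The miR-200 group keeps cells epithelial by repressing the transcription factors ZEB1 and ZEB2. None of these families is a hallmark of hepatocytes, whose best-known miRNA is miR-122-5p.

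The mature sequences are printed because several members share most of a seed yet differed in their estimated change with the diet. They come from RefSeq on build GRCm38.p6, which held all 7 members, and the seed is in capitals.
miR-183-5p: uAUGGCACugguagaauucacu
miR-96-5p: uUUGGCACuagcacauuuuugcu
miR-182-5p: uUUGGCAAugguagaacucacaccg
miR-31-5p: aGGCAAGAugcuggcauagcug
miR-31-3p: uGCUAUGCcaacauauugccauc
miR-141-3p: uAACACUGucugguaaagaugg
miR-429-3p: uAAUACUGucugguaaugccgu

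miR-96-5p and miR-182-5p shared their first 7 bases, and their seeds matched at 6 of 7 positions. The seed of miR-183-5p matched that of miR-96-5p at 6 of 7 positions and that of miR-182-5p at 5. The seeds of miR-141-3p and miR-429-3p matched at 6 of 7. miR-31-5p and miR-31-3p had seeds of their own. Of the listed miRNAs with a RefSeq sequence (348 of 474), 1 other shared the seed of miR-96-5p, miR-1271-5p, with 1 read in HFHC-EV replicate 3 and none elsewhere. Likewise 1 other shared the seed of miR-429-3p, miR-200c-3p, with 1 read in Chow-EV replicate 3 and none elsewhere. The lengths of the 7 mature products lay between 22 and 25 bases.

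On GRCm38.p6 the cluster lies on the minus strand of chromosome 6, in the order Mir183 (30169668 to 30169737), Mir96 (30169446 to 30169551) and Mir182 (30165918 to 30165992). Mir183 and Mir96 are separated by 116 bases, and Mir96 and Mir182 by 3453. None of these hairpins overlapped another annotated gene in GENCODE M21. Mir31 lies on the minus strand of chromosome 4 (88910557 to 88910662) in an exon of the lincRNA AL805899.1. Mir429 lies on the same strand of chromosome 4 (156053905 to 156053987), in an intron of Ttll10 and an exon of the processed transcript Gm13648. Mir141 lies on the minus strand of chromosome 6 (124717914 to 124717985), in an intron of the antisense transcript Gm15884 and an exon of Gm29008, a gene model awaiting experimental evidence.

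The deposited values were RPM, miRNA reads scaled to a library total much wider than the listed miRNAs. One read was worth 0.0497 to 0.0523 RPM, and the libraries held 27673 to 65775 miRNA reads. The summed miRNA signal lay between 1375 and 2081 RPM in Chow-EV and between 2202 and 3441 RPM in HFHC-EV, so most miRNAs were higher in HFHC-EV on this scale. Libraries with the same replicate number resembled each other across the diets. In EV preparations, more vesicles and more miRNA per vesicle cannot be told apart.

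miR-31-5p was the most abundant of the 7 in every library, followed by miR-182-5p. The next places changed with the diet: miR-96-5p was above miR-183-5p in all 3 Chow-EV libraries, and miR-183-5p was above miR-96-5p in all 3 HFHC-EV libraries. In Chow-EV replicate 1 these neighbours stood at 101 and 94 reads, which differ by less than counting error. miR-31-3p, miR-429-3p and miR-141-3p came last, with means over the 6 libraries of 0.945, 0.651 and 0.0505 RPM. Among all listed miRNAs of a library, miR-31-5p ranked between place 8 and place 14. miR-182-5p ranked between place 18 and place 34, miR-183-5p between 32 and 61, and miR-96-5p between 35 and 67. The level of miR-31-5p was above that of miR-122-5p in all 6 libraries. In the libraries numbered 1, miR-122-5p stood at 10.5 RPM (Chow-EV) and 14.0 RPM (HFHC-EV). In Chow-EV replicates 2 and 3 it stood at 0.745 and 1.09 RPM, and in HFHC-EV replicates 2 and 3 at 0.938 and 1.05 RPM.

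**Figure D1:**
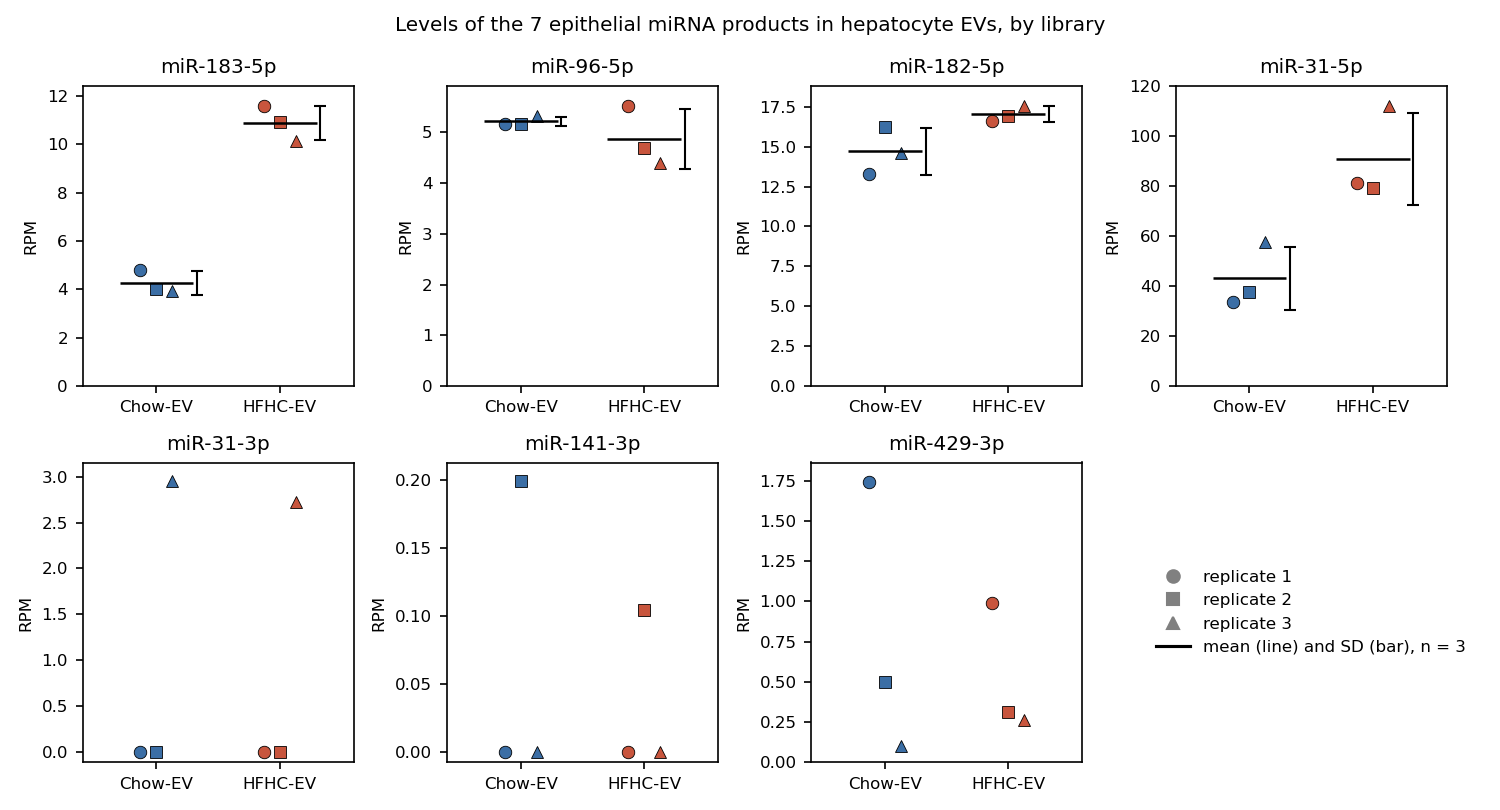
RPM of each product in each library, with shapes for the replicate number; lines and bars are the mean and SD of 3 libraries, drawn for the 4 products with a mean of at least 1 RPM. miR-183-5p, miR-31-5p and, by a narrow margin, miR-182-5p are higher in HFHC-EV without overlap, as were 42.3% of the 104 tested miRNAs. miR-96-5p lies near 5 RPM throughout, and miR-31-3p has reads in the libraries numbered 3 alone.

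The diets were then compared for the cluster. The estimates for its products were unlike: miR-183-5p rose about 2.56-fold in HFHC-EV, while the means of miR-96-5p and miR-182-5p were 0.933 and 1.16 times those in Chow-EV. Neither miR-96-5p nor miR-182-5p passed the test on this scale. Exact permutation tests of the ratios between products, given below, reached no adjusted p under 0.15. miR-183-5p stood at 4.81, 4.03 and 3.93 RPM in Chow-EV replicates 1, 2 and 3 (94, 81 and 76 reads). It stood at 11.6, 10.9 and 10.1 RPM in HFHC-EV replicates 1, 2 and 3 (222, 210 and 194 reads). The lowest HFHC-EV library was above the highest Chow-EV library, as it was for 42.3% of the 104 miRNAs tested.

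The means of miR-183-5p were 4.26 ± 0.483 RPM in Chow-EV and 10.9 ± 0.717 RPM in HFHC-EV (SD, n = 3 each). Its log2 fold change on log2(RPM + 1) was 1.18 (95% confidence interval 0.85 to 1.51), with a limma adjusted p of 0.0036. With a pseudocount of 10 in place of 1 the log2 fold change was 0.55 and was still called. The ratio of HFHC-EV to Chow-EV was 2.41, 2.72 and 2.58 in the pairs of libraries numbered 1, 2 and 3, a narrow range. The spread within a diet was close to what counting gives: the coefficient of variation came to 11.4% for the chow libraries and 6.58% for the HFHC libraries, against 10.9% and 6.92% from read counts of that size.

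miR-96-5p, known for its role in hair cells, stood at 5.17, 5.17 and 5.33 RPM in Chow-EV replicates 1, 2 and 3 (101, 104 and 103 reads). In HFHC-EV replicates 1, 2 and 3 it stood at 5.53, 4.69 and 4.40 RPM (106, 90 and 84 reads). The groups overlapped, with both the highest and the lowest value in HFHC-EV. The log2 fold change was −0.088 (95% confidence interval −0.41 to 0.23), with a limma adjusted p of 0.687, so an RPM change as large as that of miR-183-5p lay outside its interval.

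miR-182-5p, the most abundant product of the cluster, stood at 13.3, 16.25 and 14.6 RPM in Chow-EV replicates 1, 2 and 3 (260, 327 and 282 reads). It stood at 16.6, 16.9 and 17.6 RPM in HFHC-EV replicates 1, 2 and 3 (318, 325 and 336 reads). The HFHC-EV values all lay above the Chow-EV values, by a narrow margin, as they did for 42.3% of the 104 miRNAs tested. The means were 14.7 ± 1.47 and 17.03 ± 0.502 RPM (SD, n = 3 each). The log2 fold change was 0.20 (95% confidence interval −0.088 to 0.49), with a limma adjusted p of 0.249. Its sign turned when libraries were scaled to each other, as given below.

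miR-182-5p, miR-96-5p and miR-183-5p were among the steadier miRNAs within a diet. On log2(RPM + 1) their pooled within-diet SD was 0.0995, 0.102 and 0.111, in places 8, 9 and 13 from the lowest of 104, whose median was 0.354. miR-31-5p, at 0.342, lay near that median.

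miR-31-5p rose about 2.11-fold in HFHC-EV. It stood at 33.7, 37.8 and 57.5 RPM in Chow-EV replicates 1, 2 and 3 (659, 760 and 1112 reads). It stood at 81.3, 79.3 and 112.2 RPM in HFHC-EV replicates 1, 2 and 3 (1558, 1522 and 2144 reads). The groups did not overlap, as for 42.3% of the 104 miRNAs tested in that direction, and the library numbered 3 was the highest of each diet.

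The means of miR-31-5p were 43.01 ± 12.7 and 90.9 ± 18.4 RPM (SD, n = 3 each), and the log2 fold change was 1.08 (95% confidence interval 0.44 to 1.73, limma adjusted p = 0.0308). The ratio of HFHC-EV to Chow-EV was 2.41, 2.10 and 1.95 in the pairs numbered 1, 2 and 3. The coefficient of variation within a diet was 29.6% and 20.3%, far above the 3.44% and 2.40% of counting error. The call depended on single libraries: it held without Chow-EV replicate 3 (limma adjusted p = 0.0138), where 31.4% of tested miRNAs were called higher, and was lost on leaving out any other one. The limma adjusted p was 0.0986 without Chow-EV replicate 1 and 0.112 without Chow-EV replicate 2. It was 0.0823, 0.0716 and 0.0865 without HFHC-EV replicates 1, 2 and 3, with log2 fold changes from 0.92 to 1.17 in these 5 fits.

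Thus 2 of the 4 tested members, miR-183-5p and miR-31-5p, were called higher on the RPM scale, where 24% of the 104 tested miRNAs were. None of the 4 was called lower (0 at an unadjusted limma p under 0.05), against 4.81% of all. The 4 fell to both sides of the median log2 fold change of all tested miRNAs, which was 0.51. miR-183-5p and miR-31-5p took places 12 and 19 from the highest, and miR-182-5p and miR-96-5p places 75 and 93. The limma call of miR-183-5p held without each library in turn (adjusted p from 0.0113 to 0.0268). In the fits without Chow-EV replicates 1 and 2 and without HFHC-EV replicates 1, 2 and 3, each left out alone, 15.3%, 11.4%, 13.8%, 13.8% and 17.8% of tested miRNAs were called higher. Without both libraries numbered 1 it was 0.0615, and without both numbered 2 it was 0.161, when limma called no miRNA at all. For miR-31-5p these values were 0.213 and 0.265.

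TMM scaling, which lines libraries up on the bulk of their miRNAs, brought the median log2 fold change from 0.51 to 0.07. On that scale miR-183-5p had a log2 fold change of 0.62 and miR-31-5p one of 0.44 (limma adjusted p = 0.249 and 0.115). miR-182-5p stood at −0.41 and miR-96-5p at −0.63 (limma adjusted p = 0.411 and 0.226). Limma with TMM called 0 of the 4 members (1 at an unadjusted p under 0.05), where it called 0.962% of all tested miRNAs higher and 5.77% lower. edgeR on recovered reads called 0 (1 unadjusted), where it called 5.77% of all in either direction. DESeq2 called 1, miR-31-5p, higher (log2 fold change 0.40, adjusted p = 0.0276), where it called 6.73% of all higher.

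The replicate number, entered as a block because libraries of 1 number deviated together, changed these calls. With TMM scaling and the block, miR-183-5p and miR-31-5p were higher (limma adjusted p = 7.5e-04 for both) and miR-182-5p and miR-96-5p were lower (limma adjusted p = 0.0071 and 0.0012). Of all tested miRNAs, 29.8% were higher and 19.2% lower in that fit. edgeR with the block made the same 4 calls in the same directions, with adjusted p of 0.0054, 0.0088, 0.0372 and 0.0073, where 24% of all were higher and 19.2% lower. On the RPM scale with the block, miR-183-5p and miR-31-5p were higher, as were 66.3% of all, and miR-182-5p and miR-96-5p were not called (limma adjusted p = 0.149 and 0.603).

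**Figure D2:**
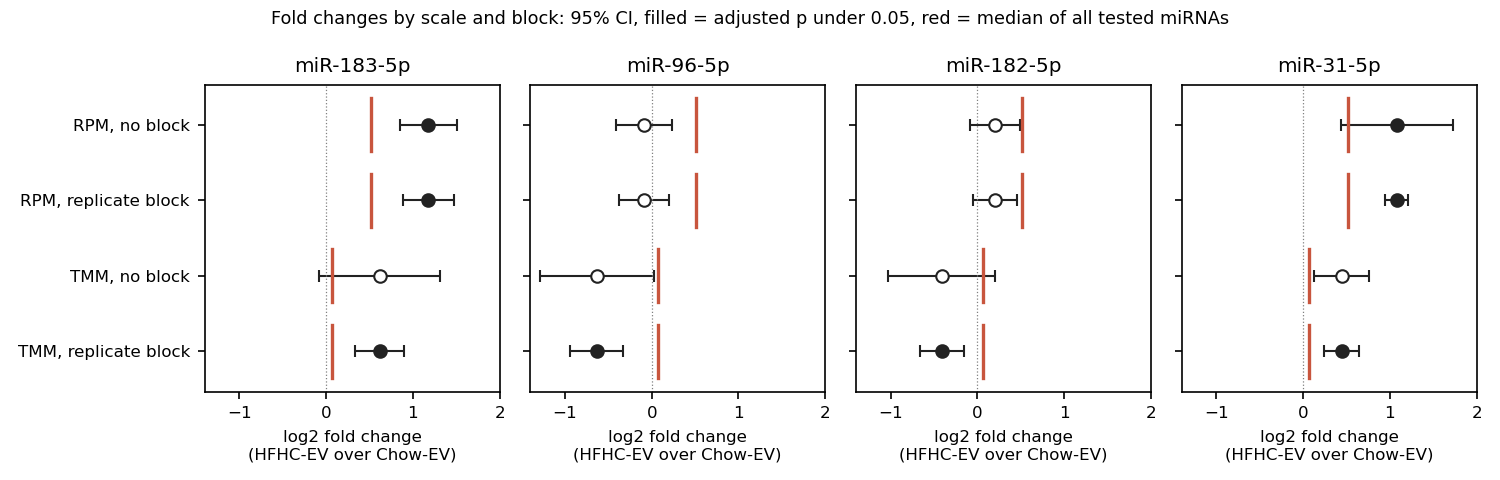
Log2 fold change, HFHC-EV over Chow-EV, with its 95% confidence interval from limma, on the RPM and TMM scales with and without the replicate block; filled points have an adjusted p under 0.05 and red marks give the median of the 104 tested miRNAs. miR-183-5p and miR-31-5p lie above the median on both scales and miR-96-5p and miR-182-5p below it; the sign of miR-182-5p turns from 0.20 in RPM to −0.41 with TMM.

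**Figure D3:**
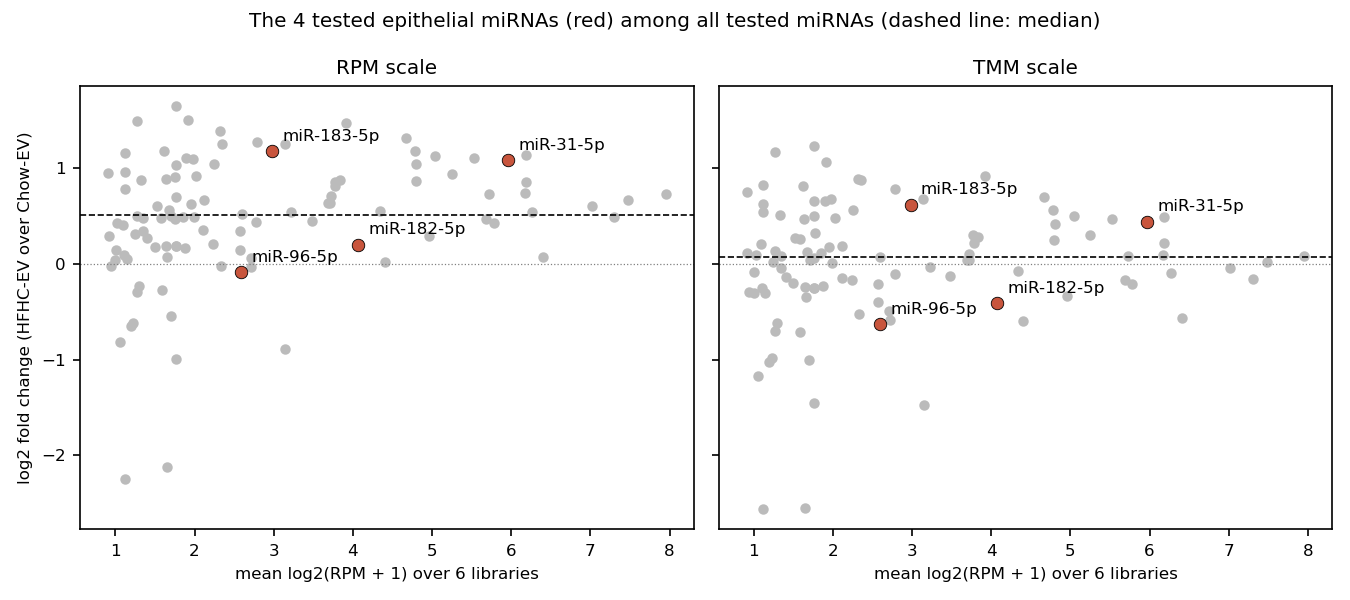
Log2 fold change against mean log2(RPM + 1) for the 104 tested miRNAs in grey and the 4 tested members in red, on the RPM and TMM scales; dashed lines are the medians, 0.51 and 0.07. miR-183-5p lies above the line, and miR-96-5p and miR-182-5p below it, on both scales.

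As shares of the miRNA signal, the members moved apart in the same way. miR-31-5p made up 2.57 ± 0.319% in Chow-EV and 3.41 ± 0.174% in HFHC-EV, without overlap, as did 12.5% of tested miRNAs in that direction. miR-183-5p made up 0.265 ± 0.067% and 0.424 ± 0.112%, and was higher in 3 of 3 pairs of equal number. miR-182-5p made up 0.917 ± 0.244% and 0.657 ± 0.132%, and miR-96-5p 0.323 ± 0.0612% and 0.190 ± 0.0547%, each lower in 3 of 3 pairs. The groups overlapped for miR-183-5p and miR-182-5p. miR-96-5p lay lower without overlap, as did 15.4% of tested miRNAs. The 2-sided exact permutation p was 0.1 for miR-31-5p and miR-96-5p, the smallest that 3 against 3 can give, and 0.2 for the other 2 (Benjamini-Hochberg adjusted over the 7 members, 0.35 for each of the 4).

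A ratio of the RPM of 2 products within a library does not depend on how that library was scaled. The ratio of miR-183-5p to miR-182-5p went from 0.293 ± 0.0604 in Chow-EV to 0.641 ± 0.0606 in HFHC-EV (SD, n = 3 each). Its values ran from 0.248 to 0.362 and from 0.577 to 0.698, without overlap. The ratio of miR-183-5p to miR-96-5p, neighbours in the genome, went from 0.816 ± 0.101 to 2.25 ± 0.132, with values from 0.738 to 0.931 and from 2.09 to 2.33. Within the cluster, the product of the first hairpin thus stood apart from the other 2 in every library of one diet against the other. Of the 103 other tested miRNAs, 29.1% had a ratio to miR-182-5p that was higher in HFHC-EV without overlap, and 42.7% had such a ratio to miR-96-5p, so separation alone was common.

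The ratio of miR-96-5p to miR-182-5p was 0.357 ± 0.0359 and 0.287 ± 0.0425, and its groups overlapped. miR-31-5p rose against both of these: its ratio to miR-182-5p went from 2.93 ± 0.880 to 5.32 ± 0.924 and its ratio to miR-96-5p from 8.21 ± 2.27 to 19.04 ± 5.72, both without overlap. Its ratio to miR-183-5p was 10.3 ± 3.90 and 8.44 ± 2.27, with overlap.

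Over these 6 pairs the 2-sided exact permutation test on log2 ratios of (RPM + 1) gave p = 0.1 for the 4 that did not overlap (adjusted p = 0.15), which is the smallest p the design allows. It gave 0.2 for miR-96-5p to miR-182-5p and 0.7 for miR-31-5p to miR-183-5p (adjusted p = 0.24 and 0.7). Adding 1 RPM makes these log2 ratios, unlike the plain ratios above, depend on the scale of the library. Without it the differences between the diets were 1.14 and 1.47 for miR-183-5p to miR-182-5p and to miR-96-5p. They were 0.89 and 1.21 for miR-31-5p to miR-182-5p and to miR-96-5p. For miR-96-5p to miR-182-5p the difference was −0.32, and for miR-31-5p to miR-183-5p −0.26. The limma fits below keep the added 1. A limma fit on the log2 ratios of all tested miRNAs to 1 member, chosen after the values were seen, borrows the spread of the other miRNAs. There the log2 ratio of miR-183-5p to miR-182-5p differed between the diets by 0.98 (95% confidence interval 0.51 to 1.45, limma adjusted p = 0.0284), where 7.77% of miRNAs were called higher. That of miR-183-5p to miR-96-5p differed by 1.27 (0.90 to 1.63, limma adjusted p = 0.0037), where 18.4% were called higher.

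In the same fits miR-31-5p differed against miR-96-5p by 1.17 (0.42 to 1.92, limma adjusted p = 0.0436) and against miR-182-5p by 0.88 (0.22 to 1.54, limma adjusted p = 0.0966). The differences for miR-96-5p to miR-182-5p and for miR-31-5p to miR-183-5p were −0.29 (−0.71 to 0.13) and −0.098 (−0.93 to 0.74), with limma adjusted p of 0.316 and 0.890. These intervals leave room for changes in either direction.

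**Figure D4:**
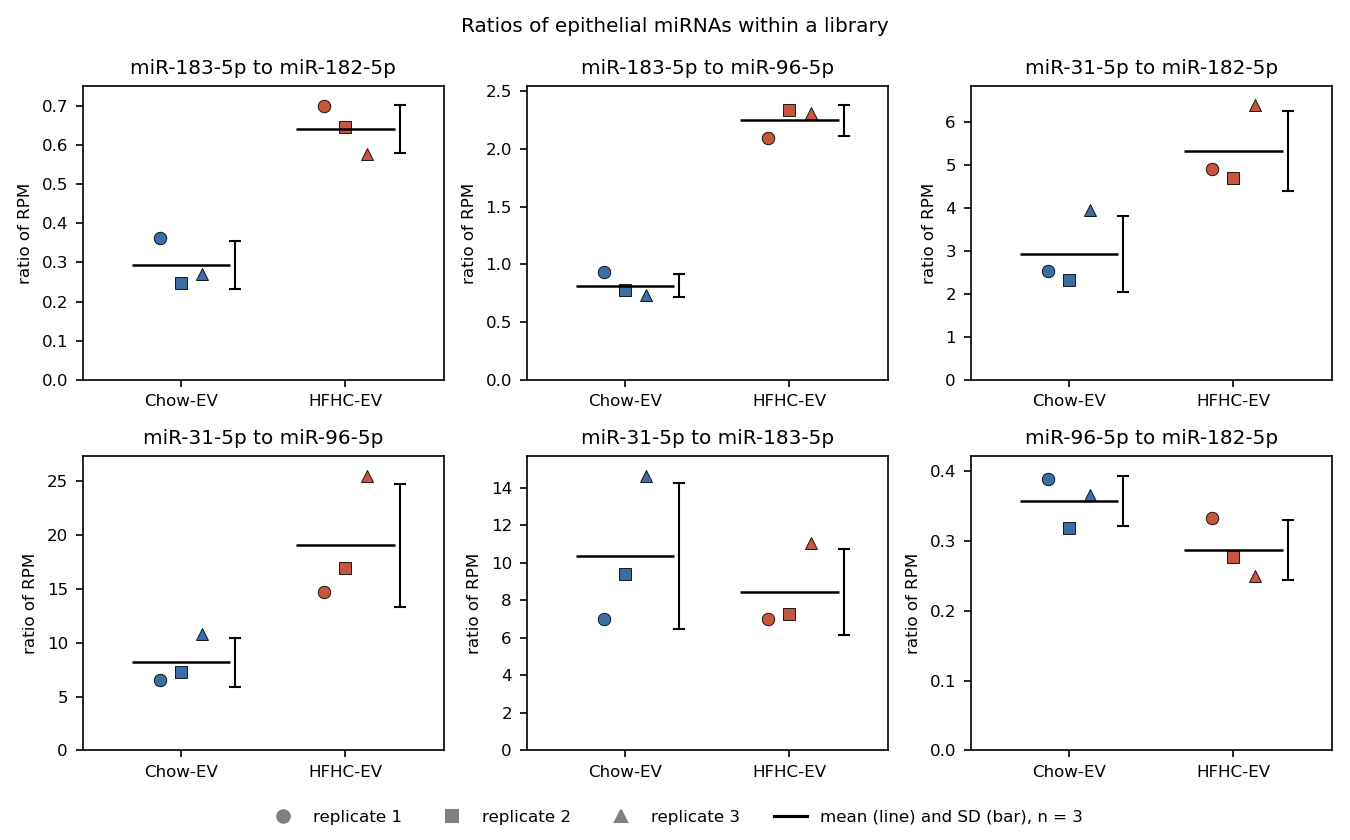
Ratio of the RPM of 2 products within each library, with shapes for the replicate number; lines and bars are the mean and SD of 3 libraries. Both ratios with miR-183-5p over a cluster neighbour separate by diet, from 0.293 to 0.641 and from 0.816 to 2.25 in the mean, while those of miR-31-5p to miR-183-5p and of miR-96-5p to miR-182-5p overlap.

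The hairpin of miR-31 gave reads from both arms. It is printed with miR-31-5p, the first stretch in capitals, and miR-31-3p, the second, because the balance of the arms differed between libraries (RefSeq, 106 bases, minus strand).
Mir31: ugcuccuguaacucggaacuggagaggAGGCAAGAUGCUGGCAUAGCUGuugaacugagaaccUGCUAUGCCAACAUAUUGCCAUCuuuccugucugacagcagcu

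miR-31-3p had 57 reads in Chow-EV replicate 3 (2.95 RPM), 52 in HFHC-EV replicate 3 (2.72 RPM) and 0 in the other 4 libraries. Both diets thus showed it in the library numbered 3 alone. In these libraries it made up 4.88% (exact Clopper-Pearson 95% interval 3.71 to 6.27) and 2.37% (1.77 to 3.09) of the reads from the hairpin. Elsewhere 0 of 659, 0 of 760, 0 of 1558 and 0 of 1522 reads allow shares of up to 0.455%, 0.395%, 0.193% and 0.197%, counting 3 reads as the limit. All 4 of these limits lay under the shares seen in the libraries numbered 3. Those libraries also had reads for more miRNAs of every kind, 282 in Chow-EV and 329 in HFHC-EV, against 188 to 235 in the others. The part of this wider difference in the arm balance was not tested. With a mean of 0.945 RPM the arm was just under the 1 RPM needed for testing. Without that filter its log2 fold change was −0.029 (95% confidence interval −1.90 to 1.84, limma adjusted p = 1 over 422 miRNAs).

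The miR-200 group was close to the limit of detection. miR-141-3p had 4 reads in Chow-EV replicate 2 and 2 in HFHC-EV replicate 2, and none in the other 4 libraries. Both diets thus showed it in the library numbered 2 alone. miR-429-3p stood at 1.74, 0.497 and 0.103 RPM in Chow-EV replicates 1, 2 and 3, and at 0.991, 0.313 and 0.262 RPM in HFHC-EV replicates 1, 2 and 3. The libraries numbered 1 were the highest of each diet. Its 3 Chow-EV libraries held 46 reads and its 3 HFHC-EV libraries 30, and the groups overlapped.

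In the fit without the filter the log2 fold change of miR-429-3p was −0.15 (95% confidence interval −1.08 to 0.78, limma adjusted p = 0.880) and that of miR-141-3p −0.040 (−0.25 to 0.17, limma adjusted p = 0.857). Limma called 0 of the 3 members under the filter (0 at an unadjusted p under 0.05), where it called 19.4% of all 422 miRNAs with a read. edgeR and DESeq2 on recovered reads also called 0 of them (0 unadjusted), where they called 0.474% and 16.6% of all. edgeR with the block called 0 (1 unadjusted, miR-429-3p), where it called 24.9% of all.

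Other epithelial products from the same families and from miR-203 and miR-205 were read alongside. Of 15 names looked for, 3 were found in the tables used here, miR-182-3p, miR-200c-3p and miR-205-5p. miR-182-3p, the other arm of the miR-182 hairpin, had 0 reads in all 6 libraries, beside 1848 reads of miR-182-5p. miR-205-5p, a marker of squamous and basal epithelium, had 2 reads in HFHC-EV replicate 1, 1 in HFHC-EV replicate 3 and none in Chow-EV. The summed level of the 3 reached at most 0.104 RPM in any library, and none entered the tests.

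Marker miRNAs of other cells were present. The haematopoietic list, found with 7 of 8 names, summed to 6.71 to 115 RPM in Chow-EV and 12.9 to 148 RPM in HFHC-EV. Its erythroid member miR-451a stood at 102 and 136 RPM in the libraries numbered 1, and at 1.64, 1.76, 9.90 and 9.73 RPM in the others. miR-429-3p was also highest in the libraries numbered 1. So were the hepatocyte miR-122-5p and the endothelial miR-126a-3p, while the haematopoietic miR-155-5p was highest in the libraries numbered 3. The part of any of these cells in the level of miR-429-3p was not tested. Limma called 0 of the 5 tested members of the haematopoietic list (1 unadjusted), where it called 24% of all higher and 4.81% lower. edgeR and DESeq2 each called 1, the lymphoid and myeloid miR-155-5p, which stood at 1.92 ± 0.699 and 0.853 ± 0.397 RPM (SD, n = 3 each). Of all tested miRNAs, edgeR called 5.77% and DESeq2 18.3% in either direction, so 1 of 5 is near the share in DESeq2 and above that in edgeR. The endothelial and mesenchymal list, found with 6 of 7 names, summed to 1.04 to 7.78 RPM in Chow-EV and 3.96 to 13.4 RPM in HFHC-EV. Of its 2 tested members limma called 0 (1 unadjusted), against the same 24% and 4.81% of all. edgeR and DESeq2 also called 0 of them, against 5.77% and 18.3% of all.

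The hepatocyte list, found with 5 of 7 names, summed to 5.54 to 17.0 RPM in Chow-EV and 13.5 to 27.3 RPM in HFHC-EV, and limma on the RPM scale called 1 of its 2 tested members higher, where 24% of all were. This was miR-192-5p, also known from gut epithelium, at 4.75 ± 0.902 and 12.6 ± 0.374 RPM (SD, n = 3 each, limma adjusted p = 0.0038). The other, miR-122-5p, overlapped between the diets, with a log2 fold change of 0.17 (limma adjusted p = 0.933). The list members under the filter also overlapped between the diets. edgeR and DESeq2 called 0 of the 2 tested members, where they called 5.77% and 18.3% of all in either direction. The log2 fold change of miR-192-5p went from 1.25 to 0.68 with TMM. The part of these sources in the levels of miR-183-5p and miR-31-5p was not tested.

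The miRNAs most like each tested member over the 6 libraries were found by Pearson's r on log2(RPM + 1) among 94 other tested miRNAs with conventional names. All points share library, depth and diet, so r is a description. miR-183-5p ran closest to miR-1198-5p (r = 0.998), miR-192-5p (0.991) and miR-26b-5p (0.980). The closest to miR-31-5p were miR-99b-5p (r = 0.995), let-7d-5p (0.990) and let-7b-5p (0.990). miR-182-5p was nearest to miR-15b-5p (r = 0.882), let-7a-5p (0.862) and let-7f-5p (0.844), and miR-96-5p to miR-326-5p (0.921), miR-150-5p (0.808) and miR-127-3p (0.726). No cluster neighbour was among the 3 closest of any of the 3 products. Within the cluster r was 0.697 for miR-183-5p and miR-182-5p, −0.405 for miR-183-5p and miR-96-5p, and −0.514 for miR-96-5p and miR-182-5p.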

How the data were processed

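Small RNA from hepatocyte EVs was size-selected on a gel, ligated, reverse transcribed and amplified, per the labels' protocols. The submitters' processing notes name Bowtie2 and GRCm38.p6. The sources used here give no annotation, trimming, rule for shared reads or handling of PCR copies. The deposited values are RPM, computed by the authors, 1 table per library. Low values were whole multiples of 1 step, so whole reads were recovered (100% of values above 0 within 0.1 of a read), giving denominators of 19114770 to 20122450 reads. Tests on them called 1 miRNA higher and 5 lower in edgeR.

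Diets were compared with limma-trend (version 3.58.1, R 4.3.3) on log2(RPM + 1) over the 104 miRNAs whose mean reached 1 RPM, adjusted by Benjamini-Hochberg at 0.05. Its fold changes understate those of low miRNAs. Members under the filter came from the fit to all 422 miRNAs with a read. edgeR 4.0.16 and DESeq2 1.42.0 on recovered reads, TMM scaling computed on the tested miRNAs, other pseudocounts, filters and libraries left out were alternatives. Ratios and shares were compared by exact permutation (scipy 1.17.1). The fitting code was tested on simulated data.

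The labels call the libraries biological replicates and do not say what a number marks. Deviations from the diet means correlated at 0.945, 0.894 and 0.946 between libraries of 1 number, and at −0.819 to 0.0265 for other pairs of libraries. The numbers were therefore taken as pairing the libraries, from the data and not from the labels. The limma block fit had 2 residual degrees of freedom. On the RPM scale it took the variance of each miRNA from a trend with abundance over all tested miRNAs (208 degrees of freedom in total). The spread of a member itself had little or no weight there. The standard error was 0.148 for miR-183-5p and 0.067 for miR-31-5p. Intervals on arm shares and the limits for 0 reads cover counting error only. Intervals on fold changes and ratios are from limma and rest on the spread between libraries, which in the block fit on the RPM scale is that of the trend. Members, lists and naming rule (members, other arms, same-seed miRNAs, listed markers, the 3 most alike) were chosen with earlier results of these data known.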

Additional observations from a re-analysis of the deposited data

How the results depend on the processing

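The limits are the 3 libraries a diet, the pairing by number and the low depth of the miR-200 group and miR-31-3p. On the RPM scale limma called 25 miRNAs higher and 5 lower. The higher count was 60 without the filter, 69 with the replicate block, 1 with TMM, with scaling to the miRNA total and in edgeR, 7 in DESeq2, 13 without Chow-EV replicate 2, 33 without Chow-EV replicate 3, and 0 to 39 with 1 library or both of a number left out. The lower count was 22 without the filter, 3 at a mean of at least 2.5 RPM, 8 with the block, 20 with TMM and the block and in edgeR with the block, 12 in DESeq2, and 0 to 5 with libraries left out. Without both libraries of number 1 or of number 2, limma called 0.

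The log2 fold change of miR-183-5p was 0.62 with TMM, 0.59 with the miRNA total, 0.71 in edgeR and 0.67 in DESeq2, none called, 0.55 with a pseudocount of 10 and 1.34 with one of 0.1, both called, and 1.14 to 1.25 with libraries left out (1.21 and 1.15 without both of number 1 and both of number 2, not called). That of miR-31-5p was 0.44 with TMM, 0.41 with the miRNA total and 0.44 in edgeR, none called, and 0.92 to 1.31 with libraries left out (1.00 and 1.10 without both of number 1 and both of number 2, not called). miR-182-5p turned to −0.41 with TMM (with and without the block), −0.44 with the miRNA total, −0.46 in edgeR, −0.44 in edgeR with the block and −0.49 in DESeq2. miR-96-5p was called lower at −0.63 with TMM and the block and at −0.75 in edgeR with the block. The cause was not tested. With TMM and in edgeR the block also brought miR-183-5p and miR-31-5p past the threshold (0.62 and 0.44 with TMM), and it changed no call of the 3 low members.

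The log2 ratios of miR-183-5p to miR-182-5p and to miR-96-5p and of miR-31-5p to miR-96-5p passed the threshold in the added limma fit (0.98, 1.27 and 1.17). That of miR-31-5p to miR-183-5p ranged from −0.32 to 0.17 with a library left out, with 0.014 without HFHC-EV replicate 1. The sign-flip permutation within pairs gave p = 0.25, the smallest for 3 pairs, for the other 5 ratios. For low members the sign turned without single libraries: the log2 fold change ranged from −0.66 to 0.63 for miR-31-3p (0.29 without HFHC-EV replicate 1 or 2), from −0.087 to 0.048 for miR-141-3p and from −0.44 to 0.21 for miR-429-3p (0.0025 without both libraries of number 1). Their shares ranged from −0.0472 to 0.0263, from −0.00566 to 0.00157 and from −0.0539 to 0.00046 percentage points. miR-141-3p had no reads left without both libraries of number 2, nor miR-31-3p without both of number 3.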
